A study of Mus musculus with 17 samples.

Results

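Chromatin accessibility was described at 8 genes that carry out monoamine transport and synthesis: Slc6a3, Slc6a2, Slc6a4, Slc18a2, Th, Ddc, Tph2 and Dbh. The genes were chosen by name, and each was taken as its gene body in the mouse genome build mm10 with 10 kb added on either side. Over 17 libraries, 51 merged peak regions of 281189 in all lay in these 8 windows. Of these, 34 were called in at least 2 libraries of a group and were kept for comparison, out of 147420 kept regions genome-wide.

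The data were ATAC-seq peak calls from neuronal nuclei of the nucleus accumbens, sorted by NeuN, a nuclear protein of mature neurons. All animals were mice of 52 to 54 days, of the strain given as C57BL/6 in the labels and C57BL/6J in the methods of the study, and each library pooled the bilateral tissue of 3 animals. Females in diestrus (a stage of low estrogen), females in proestrus (a stage of high estrogen) and males were each studied without drug and 1 hour after a single intraperitoneal injection of cocaine at 10 mg/kg. The groups held 3 libraries each, except male cocaine with 2. Control animals were a baseline group without cocaine, and no vehicle injection is described for them, so effects of the drug and of the injection cannot be told apart. For diestrus cocaine 2 the stage was given as NA in the labels and the group came from its title. Pools of different animals were the replicates, and every p-value below measures the spread between these libraries.

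Dopamine is made from tyrosine by tyrosine hydroxylase (Th) and aromatic amino acid decarboxylase (Ddc), noradrenaline from dopamine by dopamine beta-hydroxylase (Dbh), and serotonin from tryptophan by tryptophan hydroxylase 2 (Tph2) and Ddc. The vesicular transporter Slc18a2 (VMAT2) loads all of them into vesicles, and the plasma membrane transporters Slc6a3 (DAT, dopamine), Slc6a2 (NET, noradrenaline) and Slc6a4 (SERT, serotonin) take them up again, which is the step that cocaine blocks. The cell bodies of dopamine, noradrenaline and serotonin neurons lie in the midbrain and hindbrain, while the accumbens holds their axon endings and the medium spiny neurons that receive them.

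The libraries held 75458 to 157005 peaks over 42.2 to 107 Mb, at a background pileup of 6.26 to 9.55 reads. Both male cocaine libraries were at the low end, with 50.7 and 42.2 Mb covered against 80.9 to 97.2 Mb in the male controls. The start sites of the neuronal markers Rbfox3, Snap25 and Syt1 and of all 6 medium spiny neuron markers were called in 17 of 17 libraries. Of the striatal interneuron markers, Chat was called in none, Sst and Npy in 2 libraries each, and Pvalb in 7 (6 of 9 controls and 1 of 8 cocaine libraries). Of the microglia markers, Cx3cr1 and C1qa were called in none and Csf1r in 2 libraries, and of the endothelium markers, Cldn5 and Flt1 in none and Pecam1 in 7. Of the oligodendrocyte markers, Olig1 was called in 17, and Mog and Mag in 1 each. Among cortical excitatory markers, calls without and with drug numbered 9 of 9 and 1 of 8 at Slc17a7, 3 of 9 and 2 of 8 at Neurod6, and 6 of 9 and 6 of 8 at Tbr1. Among astrocyte markers they numbered 0 of 9 and 4 of 8 at Aqp4, 3 of 9 and 1 of 8 at Aldh1l1, and 9 of 9 and 7 of 8 at Gfap. Bases covered by peaks were lower after cocaine at 3 of 3 cortical and 2 of 3 astrocyte marker windows, against 80.0% of all windows. The differences at Slc17a7 (−2663 bases) and Gfap (−2435 bases) passed the exact permutation test (adjusted p = 0.0479 each), against 15% of all windows. Those at the neuronal marker Rbfox3 (−97018 bases), the medium spiny neuron marker Ppp1r1b (−4499 bases) and the microglia marker C1qa (−506 bases) passed likewise. Their adjusted p was the same, 0.0479, the smallest that any window reached. In bulk nuclei, fewer cells with an open region and less opening per cell cannot be told apart.

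The sequences below belong to promoters and regions described in the results, and no test used them. The first 3 are the 250 bases before annotated starts, taken from the RefSeq promoter table (GRCm38.p6, the same assembly as mm10), in which 7 of the 8 genes had an entry; Slc6a2 had none. They are the Th promoter (chr7:142899996-142900245, minus strand), which was never called although it holds a motif, the downstream Ddc promoter (chr11:11890409-11890658, minus strand), which was called in every cocaine library, and the Slc6a3 promoter (chr13:73536497-73536746, plus strand), of the gene with the least signal. The last 3 are the 201 bases around peak summits on the plus strand of mm10: the Th intron region with the largest difference between male and diestrus controls (chr7:142903014-142903214) and intron regions of Slc18a2 (chr19:59289916-59290116) and Dbh (chr2:27167117-27167317) with an AP-1 motif. Capitals mark the motif letters and all other bases are in lower case.
Th promoter: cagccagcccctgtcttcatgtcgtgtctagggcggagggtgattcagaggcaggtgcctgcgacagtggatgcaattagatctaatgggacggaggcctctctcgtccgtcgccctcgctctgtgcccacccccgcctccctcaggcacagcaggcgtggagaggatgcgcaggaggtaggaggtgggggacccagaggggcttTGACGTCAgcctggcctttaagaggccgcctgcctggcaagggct
Ddc downstream promoter: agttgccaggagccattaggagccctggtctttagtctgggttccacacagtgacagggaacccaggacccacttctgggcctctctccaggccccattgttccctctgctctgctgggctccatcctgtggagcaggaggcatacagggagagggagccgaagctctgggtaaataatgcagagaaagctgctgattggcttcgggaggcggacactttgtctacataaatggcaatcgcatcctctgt
Slc6a3 promoter: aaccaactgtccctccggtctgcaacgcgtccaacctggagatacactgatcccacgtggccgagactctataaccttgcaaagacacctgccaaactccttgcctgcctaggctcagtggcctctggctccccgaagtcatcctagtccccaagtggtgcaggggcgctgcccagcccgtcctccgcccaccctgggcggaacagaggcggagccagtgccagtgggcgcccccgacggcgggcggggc
Th intronic summit: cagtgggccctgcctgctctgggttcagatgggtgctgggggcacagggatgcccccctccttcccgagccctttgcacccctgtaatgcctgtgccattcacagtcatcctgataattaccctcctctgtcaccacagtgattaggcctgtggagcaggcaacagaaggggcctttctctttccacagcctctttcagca
Slc18a2 intronic summit: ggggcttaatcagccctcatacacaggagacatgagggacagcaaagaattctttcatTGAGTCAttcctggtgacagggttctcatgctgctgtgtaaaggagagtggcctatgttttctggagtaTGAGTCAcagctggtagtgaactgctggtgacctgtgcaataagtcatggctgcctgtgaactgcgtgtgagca
Dbh intronic summit: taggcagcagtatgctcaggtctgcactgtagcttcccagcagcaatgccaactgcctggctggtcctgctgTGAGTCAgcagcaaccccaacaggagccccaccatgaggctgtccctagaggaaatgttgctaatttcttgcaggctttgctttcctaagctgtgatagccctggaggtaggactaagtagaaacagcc

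Motifs of 3 stimulus-responsive factor families were searched on both strands. AP-1, bound by Fos and Jun proteins, was TGACTCA or TGAGTCA. CRE, bound by CREB, was TGACGTCA, and NBRE, bound by the Nr4a receptors, was AAAGGTCA or TGACCTTT. Within 100 bases of the summit, AP-1 letters were found in 5 of 34 member regions against 10.1% of all kept regions: 2 regions of Dbh and 1 each of Slc18a2, Th and Ddc. The Slc18a2 region held them at 2 places. CRE and NBRE letters were found in 0 of 34 member regions, against 0.498% and 0.703% of all kept regions. In the RefSeq promoters (32851 sequences, running 50 bases past the start), CRE letters were found at Th, 45 to 38 bases before the start, and at Slc18a2 across the start, against 1.79% of all promoters. NBRE letters were found at the upstream Ddc promoter, against 1.51%. AP-1 letters were found in none of the 8 member promoter sequences, against 5.2%. These matches describe the letters and not binding.

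Promoters of the group were called less often than those of protein-coding genes in general, as counts without a test. A promoter call was a peak within 1 kb of any annotated start of the gene. No member was called in all 17 libraries, against 55.9% of protein-coding genes, and 4 of 8 (Slc6a3, Slc6a2, Slc18a2 and Th) were called in none, against 31.5%. With 3 kb either side of a start, 2 members were called in every library. Slc6a4 was called in 5 libraries, Dbh in 8, Ddc in 15 and Tph2 in 16. The region at the downstream Ddc start was called in 11 libraries, and no Ddc region lay within 1 kb of the upstream start. In the other libraries with a Ddc call, among them all 3 male controls, the peak lay at an annotated internal start near the 3′ end. The Tph2 calls lay mostly 9.14 kb inside the gene, at an annotated internal start, and the region at the first start was called in 3 libraries.

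**Figure D1:**
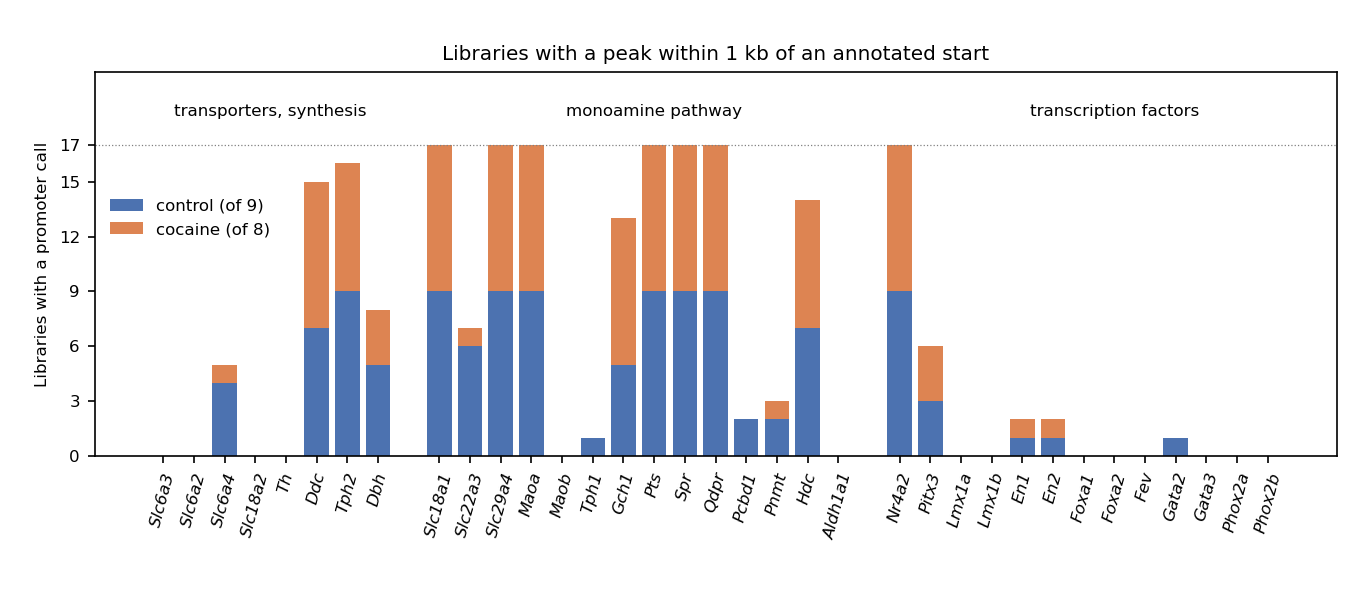
Number of libraries, of 17, with a peak within 1 kb of an annotated start (vertical axis, libraries; bars split into 9 control and 8 cocaine libraries), for the 8 members and for lists of related genes. Slc6a3, Slc6a2, Slc18a2 and Th stand at 0, whereas Ddc and Tph2 stand at 15 and 16.

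Related genes differed in the same readout. Of 14 other genes of monoamine metabolism, 6 were called in all 17 libraries, among them Maoa, which degrades monoamines, Slc29a4, a low-affinity monoamine transporter, and Pts, Spr and Qdpr, which make or recycle the tetrahydrobiopterin cofactor of Th and Tph2. Maob and Aldh1a1 were called in none. Gch1, the first enzyme of tetrahydrobiopterin synthesis, had calls in all 8 cocaine libraries and in 5 of 9 controls. The controls without a Gch1 call were all 3 of diestrus and 1 of proestrus. Slc22a3 went the other way, with calls in 6 of 9 controls and 1 of 8 cocaine libraries. Pcbd1 and Tph1 were called in 2 and 1 controls and in 0 cocaine libraries. These counts carry no test. Of 13 transcription factors of monoamine neurons, 8 were called in none and 1, Nr4a2, in all 17.

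The plasma membrane transporters carried the least accessible chromatin. Slc6a3 (chromosome 13, 73536747 to 73578672) had a single peak in a single library, proestrus control 1, where 243 bases of an intron were called at a fold enrichment of 3.38. Fold enrichment is the pileup at the summit over the background pileup, each plus 1 read. The deposited values fitted a single background pileup per library. Peaks covered on average 0.0231% of the Slc6a3 window, 0.360% of the Slc6a4 window and 0.679% of the Slc6a2 window, against a median of 3.99% over all protein-coding windows.

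Slc6a4 (chromosome 11, 76998603 to 77032340) had 1 kept region, 1.05 kb before its start. The region was called in 2 of 3 diestrus control, 1 of 3 diestrus cocaine, 1 of 3 proestrus control and 1 of 3 male control libraries, and in no other. Its fold enrichment in those 5 libraries was 2.49 to 3.68. The groups overlapped, and Fisher's exact test over libraries gave p = 0.294 (adjusted p = 0.695).

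Slc6a2 (chromosome 8, 92960079 to 93001667) had 4 kept regions. The strongest, past the gene end at 93011376 to 93011886 near the start of Gm45463, was called in all 17 libraries. Its fold enrichment was 3.10, 3.68 and 4.15 in diestrus controls and 4.04, 5.79 and 4.13 after cocaine. It was 3.59, 4.64 and 3.41 in proestrus controls and 4.81, 5.45 and 5.55 after cocaine. Male controls had 5.35, 7.16 and 5.60, and males after cocaine 4.37 and 5.11. Before centering, all 3 male controls were above all female controls. On the centered log2 scale (log2 fold enrichment minus the median of the library over 36847 regions called everywhere), male controls exceeded diestrus controls by 0.54 ± 0.18 (SE; limma adjusted p = 0.0292) and proestrus controls by 0.24 ± 0.18 (adjusted p = 0.392), and proestrus control 2 was above 2 of the male controls. The diestrus call was lost without diestrus control 1 or 2 or male control 2 or 3 (highest adjusted p = 0.187). A region in a coding exon, at 92996817 to 92997124, was called in 3 of 3 male controls, 1 of 3 proestrus cocaine libraries and no other.

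The vesicular transporter Slc18a2 (chromosome 19, 59260896 to 59296012) was called inside the gene and never at its start. Regions 4.37 kb and 29.1 kb into the gene were each called in 13 libraries, with median fold enrichments of 3.32 and 3.06. The region at 29.1 kb, whose summit sequence above holds AP-1 letters at 2 places, was called in 3 of 3 diestrus libraries in both conditions, in 1 of 3 proestrus controls and 2 of 3 after cocaine, and in 2 of 3 male controls and 2 of 2 after cocaine. Its highest fold enrichment was 6.17, in diestrus cocaine 1, and its lowest 2.56, in male cocaine 2. Cocaine and control libraries overlapped in both regions, and Fisher's exact test gave p = 1.0 and p = 0.576 (adjusted p = 1.0 and 0.833).

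**Figure D2:**
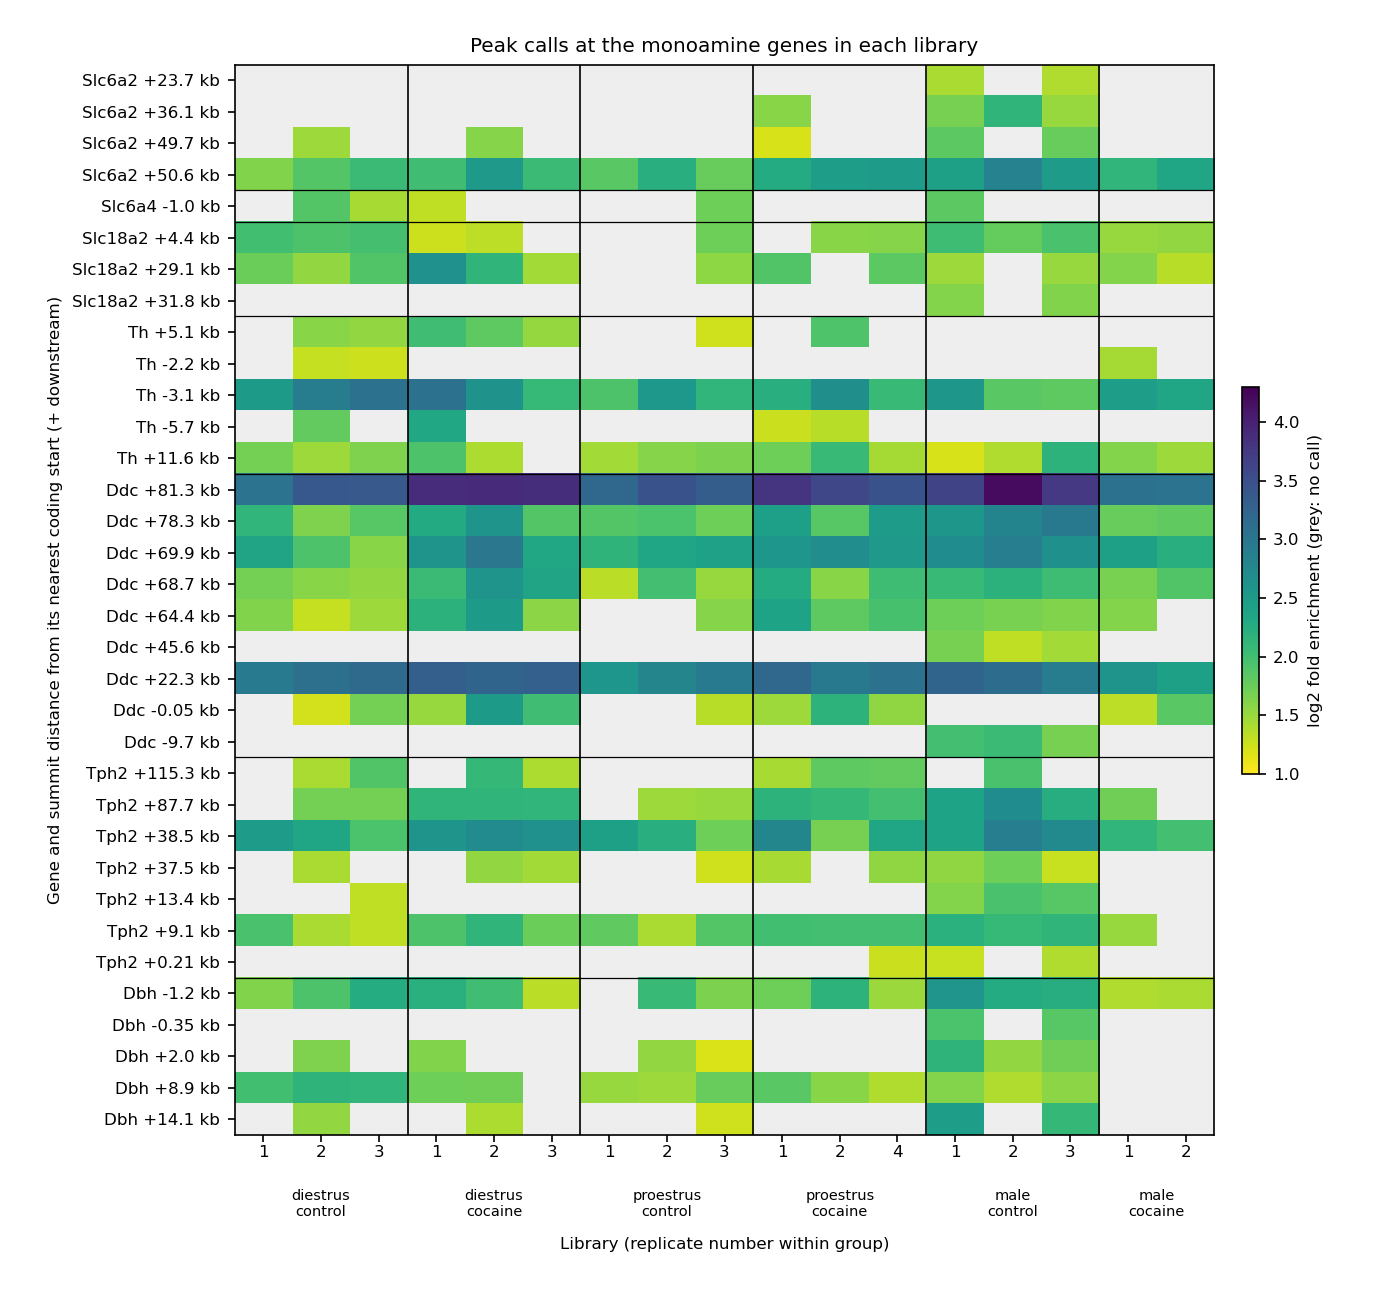
Log2 fold enrichment (color) of the 34 kept member regions (rows, by gene and distance in kb from the nearest protein-coding start) in the 17 libraries (columns, by sex, stage and treatment), with grey cells where no peak was called. In 8 rows, of which 5 belong to Ddc, every library is filled, and Slc6a3 has no row.

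Th (chromosome 7, 142892752 to 142931128, minus strand) encodes the rate-limiting enzyme of dopamine and noradrenaline synthesis. Its promoter, with the CRE letters shown above, was called in no library. The region called in all 17 lay 3.1 kb before the nearest protein-coding start, at 142902718 to 142903465, in an intron of longer transcripts. Its fold enrichment was 5.68, 7.48 and 8.41 in diestrus controls and 8.43, 6.16 and 4.25 after cocaine. It was 3.80, 5.80 and 4.36 in proestrus controls and 4.71, 6.31 and 4.19 after cocaine. Male controls had 5.86, 3.58 and 3.51, and males after cocaine 5.47 and 5.11. Diestrus controls were high, and before centering 1 male control overlapped them and was above both male cocaine libraries.

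After centering, the Th region was 0.95 ± 0.19 lower in male than in diestrus controls on the log2 scale (limma adjusted p = 0.000640), a ratio of 0.519. This call held when any of the 17 libraries was left out. Against proestrus controls the male controls were 0.53 ± 0.19 lower, which did not pass (limma adjusted p = 0.0580). Without centering, male controls differed from diestrus controls by −0.76 (limma adjusted p = 0.0176) and from proestrus controls by −0.13 (adjusted p = 0.691). In males the region was 0.82 ± 0.21 higher after cocaine (adjusted p = 0.0133), with centered values of −0.45, −1.05 and −1.09 in controls and −0.03 and −0.06 after cocaine. The effect in males exceeded the mean effect in females by 0.93 ± 0.25 (adjusted p = 0.0130). The differences in diestrus (−0.25 ± 0.19) and proestrus (0.02 ± 0.19) did not pass the test. The male effect rested on centering: without it the difference was 0.33 with an adjusted p of 0.312 and the male minus female difference 0.39 with an adjusted p of 0.328, and the male cocaine libraries had the lower library medians, 5.58 and 5.35 against 7.44 to 8.03 in the male controls. It was also lost without male control 2, male control 3 or either male cocaine library (highest adjusted p = 0.123).

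The other Th regions were weaker. A region 5.1 kb inside the gene, at 142894717 to 142895103, was called in 3 of 3 diestrus cocaine libraries, 2 of 3 diestrus controls, 1 of 3 proestrus libraries in each condition and 0 of 5 male libraries. It was the single member region that separated diestrus from male libraries after cocaine. A region at 142919182 to 142919581 was called in all libraries but diestrus cocaine 3.

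**Figure D3:**
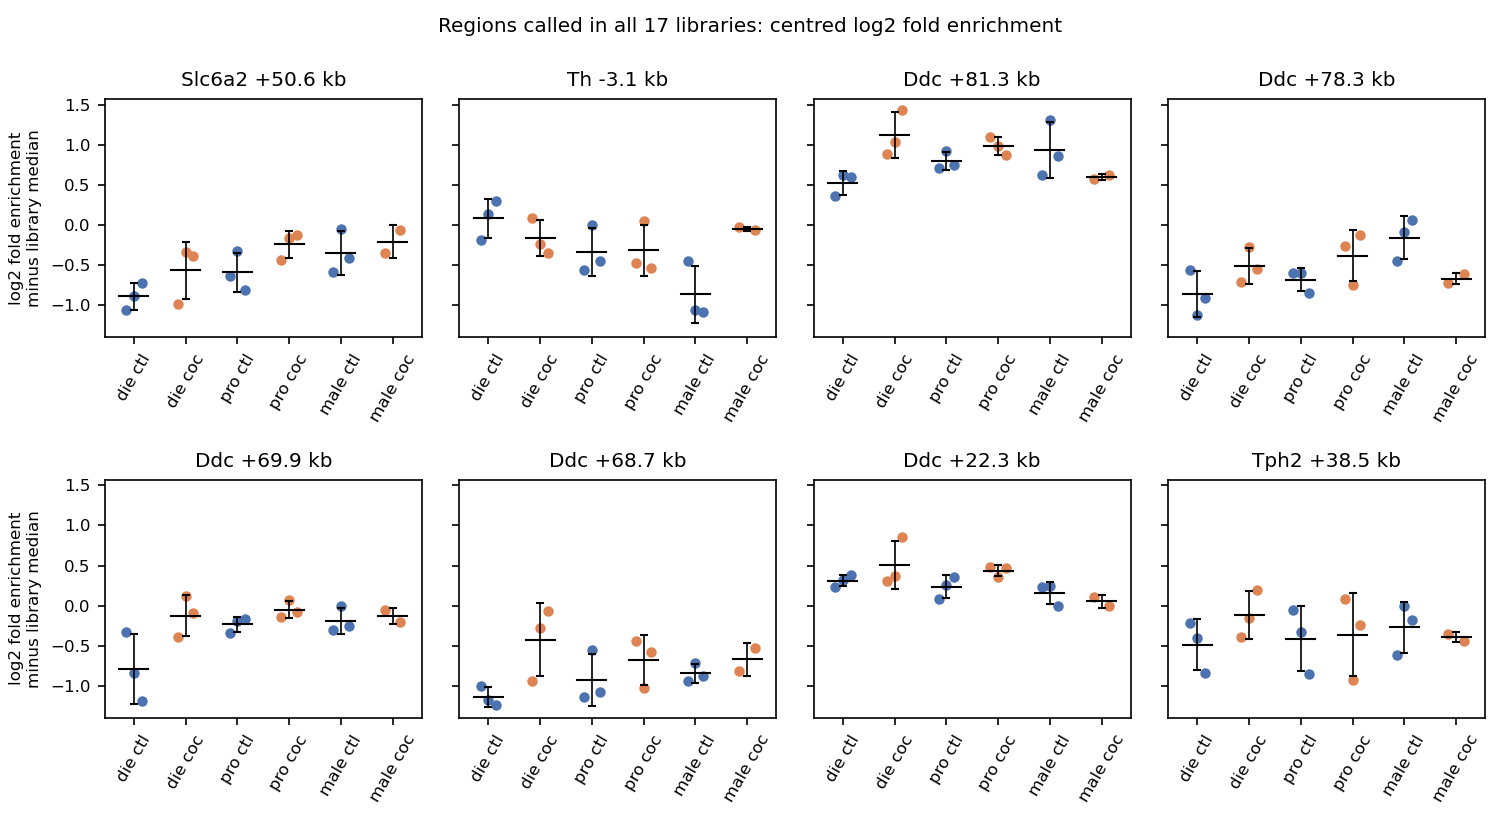
Centered log2 fold enrichment (vertical axis, log2) in each library, by group, for the 8 member regions called in all 17 libraries, with points for libraries, lines for group means and bars of 1 SD. The Th region lies highest in diestrus controls and lowest in male controls, and the Ddc regions lie higher in diestrus after cocaine than in diestrus controls.

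Ddc (chromosome 11, 11814101 to 11898144, minus strand), shared by the dopamine, noradrenaline and serotonin pathways, held the most accessible chromatin of the group, with 9 kept regions and 4.11% of its window covered. Its window also holds the starts of Fignl1 and 1700042O10Rik, and the strongest region of all members, at 11808536 to 11809927 with a median fold enrichment of 11.1, lay at the start of Fignl1. A region at such a start was assigned to Ddc by position alone.

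Peaks covered more of the Ddc window after cocaine in both female stages. Diestrus controls had 3313, 3957 and 3758 bases and diestrus cocaine libraries 5531, 6147 and 5318. Proestrus controls had 2747, 3381 and 3627 bases and proestrus cocaine libraries 4766, 4982 and 4467. Male controls had 4405, 4678 and 4421 bases and male cocaine libraries 3750 and 3497. Cocaine libraries were thus above all controls in each female stage and below all controls in males. The mean difference over sexes and stages was 866 bases, with an exact permutation p of 0.0373 and an adjusted p of 0.101. With the same number of strongest peaks from each library it was 1247 bases (adjusted p = 0.0502).

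Because the total covered length differed between libraries, the bases covered at Ddc were also taken per Mb of peaks in the library, as an alternative scale. These were 42.4, 41.7 and 39.7 in diestrus controls and 51.6, 82.0 and 81.4 after cocaine. They were 34.3, 39.4 and 37.4 in proestrus controls and 55.8, 62.6 and 53.5 after cocaine. Male controls had 45.3, 57.9 and 46.2 and male cocaine libraries 73.9 and 82.9. On this scale every cocaine library was above every control of its sex and stage. The mean difference was 26.4 bases per Mb (exact permutation p = 0.00025, the smallest possible over 4000 assignments; adjusted p = 0.0190, against 15.1% of 18149 windows called). Without diestrus control 2 the adjusted p was 0.0540, and without the male libraries 0.0459. The direction in males thus differed between the scales, downward in bases and upward per Mb of peaks.

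**Figure D4:**
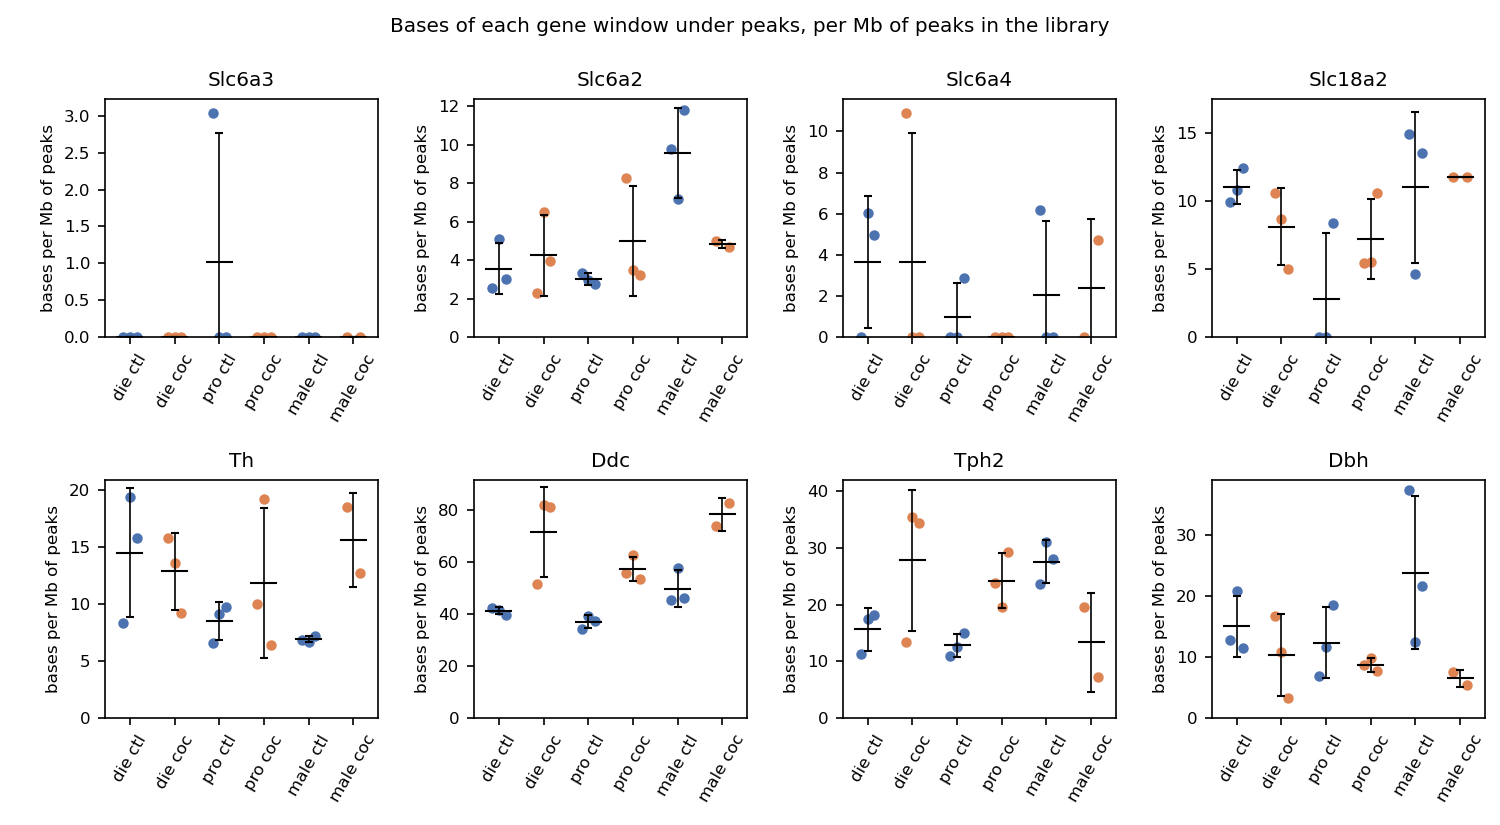
Bases covered by peaks in each member window per Mb of peaks in the library (vertical axis), by group, with a point per library, lines for group means and bars of 1 SD. At Ddc the cocaine libraries lie above the controls of the same sex and stage, and at Slc6a3 all libraries but 1 lie at 0.

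The downstream Ddc start had the smallest Fisher p of the member regions. The region at 11889625 to 11890713, 0.05 kb from that start, was called in 8 of 8 cocaine libraries and 3 of 9 controls. The control calls were 2 of 3 in diestrus, 1 of 3 in proestrus and 0 of 3 in males, so cocaine and control libraries did not overlap in males. Fold enrichments ran from 2.34, in diestrus control 2, to 5.66, in diestrus cocaine 2. Fisher's exact test gave p = 0.00905 and an adjusted p of 0.273 over 64304 regions.

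Of the 5 Ddc regions called in all 17 libraries, 3 rose in fold enrichment after cocaine in diestrus. The other two had differences of 0.35 and 0.20 (limma adjusted p = 0.190 and 0.411). A region in an intron near the 3′ end went from 3.23, 3.01 and 2.91 to 4.15, 6.04 and 5.17, without overlap. In proestrus it had 2.53, 3.95 and 2.84 in controls and 4.81, 2.99 and 4.08 after cocaine, and in males 4.21, 4.54 and 4.06 against 3.17 and 3.72. Centered, the difference was 0.71 ± 0.19 in diestrus (limma adjusted p = 0.0217) and 0.38 ± 0.12 as the mean over sexes and stages (adjusted p = 0.0283). The mean call was lost without any of 9 libraries in turn (highest adjusted p = 0.113) and without centering (0.26, adjusted p = 0.163). With the replicate block its adjusted p was 0.0622.

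The neighboring region at 11819929 to 11820909 rose by 0.66 ± 0.18 in diestrus (limma adjusted p = 0.0203) and the Fignl1 start region by 0.59 ± 0.17 (adjusted p = 0.0279). Each of the 3 diestrus calls was lost without diestrus control 2, diestrus control 3, diestrus cocaine 2 or diestrus cocaine 3, and the call at the Fignl1 start also without diestrus control 1 (highest adjusted p = 0.206). Without centering the neighboring region and the Fignl1 start had adjusted p-values of 0.0547 and 0.0616. In diestrus, calls of cortical markers went from 3 of 3 controls to 1 of 3 cocaine libraries at Slc17a7, from 0 of 3 to 3 of 3 at Tbr1 and stayed at 0 at Neurod6. Those of astrocyte markers went from 0 of 3 to 3 of 3 at Aqp4 and were equal at Gfap (3 of 3) and Aldh1l1 (0 of 3). The part of other cell types in the Ddc differences was not tested.

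Between the sexes, cocaine differences at Ddc diverged at both regions past the 3′ end. At 11811895 to 11812515, diestrus controls had fold enrichments of 4.39, 3.13 and 3.63, and diestrus cocaine libraries 4.87, 6.04 and 3.68. Proestrus controls had 3.70, 3.83 and 3.32, and proestrus cocaine libraries 5.41, 3.64 and 5.55. Male controls had 5.86, 7.02 and 7.79, and male cocaine libraries 3.39 and 3.49. Male controls were above all other controls and above both male cocaine libraries. The male minus mean female cocaine difference was −0.84 ± 0.24 (limma adjusted p = 0.0169), and −0.72 ± 0.22 at the Fignl1 start (adjusted p = 0.0271). Both were lost without male control 2 or either male cocaine library, and the former also without male control 3 (highest adjusted p = 0.128).

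In controls, the region at 11811895 was 0.71 ± 0.18 higher in males than in diestrus (limma adjusted p = 0.00501) and 0.52 ± 0.18 higher than in proestrus (adjusted p = 0.0454). The former held without any of the 17 libraries, and the latter was lost without any of 8 (highest adjusted p = 0.201) and with the replicate block (adjusted p = 0.0565). The region at 11819929 was 0.60 ± 0.18 higher in males than in diestrus (adjusted p = 0.0143), which was lost without diestrus control 2, diestrus control 3 or male control 2.

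Tph2 (chromosome 10, 115078641 to 115185022, minus strand) had 7 kept regions over a long window, of which 1.34% was covered. The strongest, at 115146092 to 115147028 in an intron, was called in all 17 libraries with a median fold enrichment of 5.23 and a range of 3.21 to 7.44. It passed the test in none of the 8 contrasts. A region past the 3′ end, at 115069518 to 115070107, was called in 3 of 3 proestrus cocaine libraries and 0 of 3 proestrus controls. The same region was called in 2 of 3 diestrus libraries in each condition, 1 of 3 male controls and 0 of 2 male cocaine libraries.

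Bases covered at Tph2 moved apart between the sexes. Proestrus controls had 880, 1074 and 1456 bases and proestrus cocaine libraries 2037, 1555 and 2444. Male controls had 2296, 2513 and 2675 bases and male cocaine libraries 987 and 301. Neither pair of groups overlapped, and the directions were opposite. Diestrus controls had 882, 1656 and 1720 bases and diestrus cocaine libraries 1430, 2661 and 2257, with overlap. Over all strata the difference was −92.9 bases (exact permutation p = 0.823, adjusted p = 0.894).

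Dbh (chromosome 2, 27165233 to 27183200) had 5 kept regions, the strongest 1.19 kb before its start and at the antisense gene Dbhos, called in 16 libraries with a median fold enrichment of 3.91. ATAC-seq does not assign a peak to a strand, so Dbh and Dbhos cannot be told apart there. An intron region 1.98 kb into the gene, at 27166712 to 27167734, whose AP-1 letters are shown above, was called in 6 of 9 controls and 1 of 8 cocaine libraries. The control calls were 1 of 3 in diestrus, 2 of 3 in proestrus and 3 of 3 in males, and the cocaine call was diestrus cocaine 1. Fisher's exact test gave p = 0.0498 and an adjusted p of 0.382.

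Bases covered at Dbh were fewer after cocaine in males. Male controls had 3635, 1009 and 2065 bases and male cocaine libraries 379 and 229, without overlap. Diestrus controls had 997, 1977 and 1077 bases against 1795, 813 and 217 after cocaine, and proestrus controls 545, 999 and 1788 against 734, 783 and 636, both with overlap. The mean difference was −911 bases (exact permutation p = 0.043, adjusted p = 0.111), and without diestrus cocaine 1 it was −1054 bases and passed (adjusted p = 0.0394). Per Mb of peaks it was −8.56 (exact permutation p = 0.0348, adjusted p = 0.116).

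Taking the 8 genes as a list, calls and covered length gave no adjusted difference between cocaine and control beyond the per-Mb value at Ddc. Of 13 member regions tested with Fisher's exact test, 0 passed after adjustment, against 0% of all 64304 regions, and 2 had an unadjusted p under 0.05, the Ddc and Dbh regions above, against 13%. Of 8 windows, 0 passed the exact permutation test of covered bases after adjustment, against 15%, and 2, Ddc and Dbh, had an unadjusted p under 0.05, against 40.7%. Covered bases were lower after cocaine at 6 members and higher at 2, with a median difference of −71.7 bases, against lower values at 80.0% of all windows and a median of −490 bases. In the pathway list, 11 windows were lower and 2 higher. Slc22a3, an extraneuronal monoamine transporter, was the single gene past the threshold there, by −1931 bases (adjusted p = 0.0479).

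Regions that separated cocaine from control libraries completely were counted by stratum. In diestrus 0 of 34 member regions were gained and 0 lost, against 1.16% and 1.26% of all kept regions. In proestrus 1 was gained, the Tph2 region past the 3′ end, and 0 were lost, against 2.45% and 1.64%. In males 1 was gained, at the downstream Ddc start, against 1.66%, and 7 were lost, against 16.8%. The lost regions were 2 at Ddc (11844580 to 11844862 and 11907681 to 11908110), 2 at Tph2 (115147199 to 115147748 and 115171215 to 115171856), 2 at Dbh (27166712 to 27167734 and 27173893 to 27174627) and the coding exon region of Slc6a2. With the same number of strongest peaks taken from every library, 0 member regions were lost in males, and 3 were gained and 1 lost in diestrus. With peaks required to cover 50% of a region, 2 were gained in diestrus and 0 in males. The shares of all kept regions under these other settings are not given here, so nothing particular to these genes can be read from those counts. Groups of 3 against 3 or 2 against 3 libraries cannot give an exact p below 0.1, so no region was tested by itself.

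Separations between sexes were near the background in number. Called in all male and no diestrus controls were 3 member regions (2 at Ddc and 1 at Slc6a2), against 9.05%, and 0 the other way, against 3.02%. Called in all male and no proestrus controls were 4 (the same 3 and the Tph2 region at 115171215), against 10.5%, and 0 the other way, against 1.42%. With the same number of strongest peaks from each library the male and proestrus controls were separated by 1. Diestrus and proestrus controls were separated by 0 regions in either direction, against 3.96% and 0.792%.

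After cocaine, 1 region was called in all diestrus and no male libraries, the Th region at 142894717, against 5.14%, and 0 the other way, against 1.64%. In proestrus against males, 2 regions (Dbh at 27173893 and Tph2 at 115069518) were called in proestrus alone, against 6.24%, and 0 in males alone, against 1.32%. Diestrus and proestrus were separated by 0 regions in either direction, against 0.245% and 0.517%.

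In the regions called in all libraries, which were 8 of 34 (against 25% of all kept regions), the limma fit passed 3 of 8 for cocaine in diestrus, against 9.61% of 36847 regions, 0 in proestrus, against 3.33%, and 1 in males, against 9.18%. In proestrus 0 of 8 also had an unadjusted limma p under 0.05, against 20.6%, although all 8 differences were positive, with a median of 0.19 against −0.02 over all regions. As the mean over sexes and stages 1 of 8 passed, against 13.6%, and for the male minus female difference 3 of 8, against 17%. Without centering the median male difference over all regions was −0.40, against 0.09 with it. Of the 8 regions, 3 then passed in males, against 12232 of 36847 regions, and 7 for the male minus female difference, against 13969. In controls, 4 of 8 passed between males and diestrus, against 23.3%, and 1 of 8 between males and proestrus, against 14.4%. Between diestrus and proestrus 0 of 8 passed, against 0.266%, and 2 of 8 (at Th and at Ddc 11819929) had an unadjusted limma p under 0.05, against 14.4%. As 5 of the 8 regions lie in the Ddc window, these counts are not counts of independent genes.

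**Figure D5:**
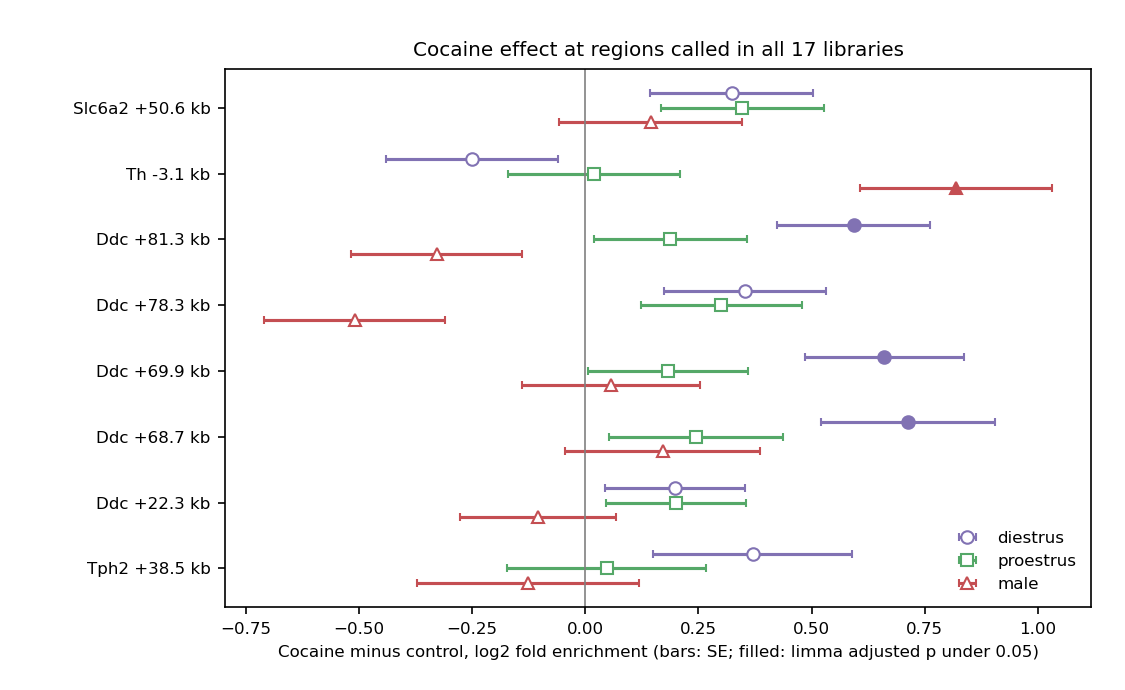
Cocaine minus control difference in centered log2 fold enrichment (horizontal axis, log2, with bars of 1 SE and filled symbols for a limma adjusted p under 0.05) in diestrus, proestrus and males for the 8 member regions called in all libraries. The Th region is positive in males at 0.82, and 3 Ddc regions in diestrus lie between 0.59 and 0.71.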

How the data were processed

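ATAC-seq was run on sorted neuronal nuclei, and 1 peak file per library was analysed for all 17 libraries. According to the paper and labels, the authors trimmed the reads, aligned them to mm10 with BWA-MEM and called peaks in each library with MACS2. Versions and options are not given in the sources used here. The deposited columns were a display score, the fold enrichment ratio at the summit, −log10 p-values and q-values, and the summit offset. The count matrix of the study was not analysed here, so its DESeq2 test was not repeated.

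Groups came from the sample titles. The members and lists were chosen with earlier results of these data known. Peaks on chromosomes 1 to 19 and X sharing at least 1 base were merged over libraries, and regions called in at least 2 libraries of a group were kept. Genes came from GENCODE M21. Fisher's exact test (two-sided) was used on regions called in 4 to 13 libraries. Covered bases were compared by a two-sided exact permutation test within sex and stage. Log2 fold enrichment, centered on the library median, was fitted in limma 3.58.1 (R 4.3.3) with 6 group means. Benjamini-Hochberg adjustment ran over all features of each test, at 0.05. Scripts were tested on simulated data. Named regions were those separating groups, past a threshold, over a member promoter, called everywhere, or strongest in their gene; leaving out libraries on the per-Mb scale, and the male libraries together, were added after the data were seen. Smallest summit pileups were 15 to 20 reads, which set the detection limit of a call. Alternatives were a q-value of at least 5 on the −log10 scale, equal numbers of peaks, 50% cover, a 3 kb promoter, other or no centering, a replicate block, and leaving out each library. A gene of the pathway list and a sequence are not reported here.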

Additional observations from a re-analysis of the deposited data

Results flagged for a closer look

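The cocaine difference in log2 fold enrichment differed between males and the mean of females in 3 of 8 regions by the interaction contrast of limma, against 17% of 36847 regions. At Th (142902718 to 142903465) it was 0.93 higher in males (adjusted p = 0.0130), with differences of −0.25 in diestrus, 0.02 in proestrus and 0.82 in males. At the Fignl1 start in the Ddc window (11808536 to 11809927) it was −0.72 (adjusted p = 0.0271), with 0.59, 0.19 and −0.33. At Ddc 11811895 to 11812515 it was −0.84 (adjusted p = 0.0169), with 0.35, 0.30 and −0.51. Without centering, the Th value was 0.39 and did not pass (limma adjusted p = 0.328), and those in the Ddc window were −1.27 and −1.38 and passed. Each value rested on 2 male cocaine libraries.

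In covered bases, every cocaine library lay on one side of its controls in a female stage and on the other side in males at Ddc, Tph2 and Slc6a2. These differences were not tested. The share of all windows with this pattern was not computed, so nothing particular to these genes can be read from it. Covered bases were lower after cocaine at 80.0% of all windows. At Ddc the cocaine difference was 2867 bases larger in diestrus and 2365 bases larger in proestrus than in males (differences of 1989, 1487 and −878 bases). At Tph2 it was 2726 bases larger in proestrus than in males (875 and −1851 bases). At Slc6a2 it was 816.5 bases larger in proestrus than in males (155 and −661.5 bases). Proestrus controls there had 267, 253 and 267 bases and proestrus cocaine libraries 707, 276 and 269. The mean difference in proestrus thus came mostly from proestrus cocaine 1. Per Mb of peaks these proestrus groups overlapped, with 3.34, 2.95 and 2.76 in controls and 8.28, 3.47 and 3.22 after cocaine. Both male cocaine libraries had the smallest total covered lengths, and the part of that in these differences was not tested. Per Mb of peaks, the Ddc differences were 30.4 in diestrus, 20.3 in proestrus and 28.6 in males, all in the same direction. On that scale Tph2 had 11.4 in proestrus and −14.3 in males, still in opposite directions. Slc6a2 had 1.98 in proestrus and −4.75 in males.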

How the results depend on the processing

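Of 2123 alternative values under 44 settings, 0 reversed a called direction. Among single values 57 lost and 40 gained the threshold, 92 uncalled values changed sign, and 99 counts moved by over 1.5 times. The cause was not tested unless a setting drops peaks or libraries by construction. Detection was limited by peaks of at least 15 to 20 reads and by 2 or 3 libraries a group. Except without centering, the counts of member regions below stand without the share of all regions under the same setting. A group with fewer libraries is also easier to separate completely. Nothing particular to these genes can therefore be read from a change in those counts.

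When peaks had to reach a −log10 q of 5, member regions lost in diestrus were 1, gained in proestrus 0, and gained and lost in males 0 and 4. Regions separating male from diestrus controls were then 1, male from proestrus controls 1, male from proestrus after cocaine 1, and the mean cocaine contrast of limma passed 0. With the same number of strongest peaks, gained and lost were 3 and 1 in diestrus and lost in males 0. The separating regions were then 1 for male and proestrus controls, and 2 and 0 for males against diestrus and proestrus after cocaine. With 50% cover, gained regions were 2 in diestrus and 0 in males, and males against diestrus after cocaine 6. With 3 kb promoters, 2 members were called in every library. Covered bases as a share of the library total passed 1 window, also without the male libraries (1).

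Without centering, limma passed 1 region in diestrus, 3 in males, 0 for the mean, 7 for the male minus female difference and 3 between male and proestrus controls. Over all 36847 regions the counts were 816, 12232, 3773, 13969 and 12094. With the replicate block, the mean cocaine contrast passed 0 and male minus proestrus controls 0, and it changed no other call at the members. Same-numbered libraries had deviations correlated at −0.29 to 0.20 over 7 pairs, 2 of them over 0.1, so the numbers were not taken to pair them.

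Leaving out each library in turn gave these ranges of member regions: lost in diestrus 0 to 1, gained and lost in proestrus 1 to 3 and 0 to 1, gained and lost in males 1 to 2 and 7 to 13 (13 without male control 2). Separating regions were 3 to 7 for male against diestrus controls (7 without male control 2), 4 to 9 for male against proestrus controls (9 without male control 2), and 0 to 3 between diestrus and proestrus controls (3 without proestrus control 3). After cocaine they were 1 to 4 and 2 to 5 for males against diestrus and proestrus (4 and 5 without male cocaine 1) and 0 to 1 between diestrus and proestrus. Windows passed were 0 to 1, the 1 in covered bases being Dbh without diestrus cocaine 1. Regions passing limma were 0 to 4 in diestrus, 0 to 1 in males, 0 to 3 for the mean, 0 to 3 for the male minus female difference, 2 to 5 for male minus diestrus controls and 0 to 2 for male minus proestrus controls.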

Other observations

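For each member covered in at least 9 libraries, the protein-coding gene on another chromosome whose share of the covered length followed it most closely over the 17 libraries was Ptpn14 for Slc6a2 (Pearson r 0.90), Otof for Slc18a2 (0.81), Mapk15 for Th (0.85), Npy5r for Ddc (0.97), Fate1 for Tph2 (0.94) and Kiss1 for Dbh (0.93). Each was the highest of all windows compared, the libraries share depth and group differences, and the values are descriptions.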
